A study of Mus musculus with 278 samples.

Results

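Basal and luminal cells of the pregnant mammary gland were compared within a single pool of cells. The 93 cells described here were 64 cells of a basal class and 29 cells of a luminal class, drawn from 278 single-cell libraries of the mouse mammary gland. They were chosen from their own counts, because the pregnancy cells had been collected as total epithelium and carried no lineage label. A pregnancy cell with at least 50000 reads and 1000 detected genes was called basal when 6 or more of 10 basal genes (Krt14, Krt5, Krt17, Acta2, Myh11, Mylk, Cnn1, Tagln, Myl9 and Tpm2) reached 50 CPM (reads scaled to a common library total). It was called luminal when 3 or fewer did so and at least 1 read of Krt8 or Krt18 was present. Of 123 pregnancy cells 96 met the read and gene minimums, and 3 of these fell in neither class.

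All animals were of the FVB/NJ strain, and the labels give their status as adult or pregnancy, without an age. The pregnancy cells were taken from glands in mid-pregnancy as CD24+ cells negative for the markers of endothelial and blood cells, and were captured on the Fluidigm C1, a microfluidic device that places 1 cell in each chamber. The yardstick for the pregnancy contrast was the contrast between sorted adult cells, 85 of the CD29-high CD24+ basal sort and 39 of the CD29-low CD24+ luminal sort after filtering. The luminal sort held progenitor, hormone-sensing and other luminal cells together. Since a library held 1 cell and the labels tie none to an animal, every group counted as 1 sample. No differences were tested, and none can be checked against replicates. Intervals are at the 95% level, exact, and cover counting error only. The reads were amplified without molecular identifiers, so intervals of ratios, which count reads and not molecules, are likely too narrow.

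Basal cells form the contractile outer layer of ducts and alveoli, rest on the basement membrane, and squeeze milk out when oxytocin reaches them. Luminal cells face the lumen, and during pregnancy their alveolar fraction turns on the caseins and other milk genes under prolactin, whose signal runs from its receptor through STAT5 to DNA sites of the form TTCNNNGAA. Other luminal cells sense oestrogen and progesterone and pass the signal on by secreted factors. Adult basal and luminal cells are among the most clearly separated cell types of the gland.

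The milk protein genes differed widely between the pregnancy and the adult contrast, so the stretches before their starts are shown first. Promoter sequences were found for 6 of the 8 milk protein genes in RefSeq (GRCm38.p6), and the 250 bases before the start held TTCNNNGAA in 3 of them, against 7.02% of all 32851 promoters in the same table. The motif reads the same on both strands. The promoters of Csn1s1 (chr5:87665958-87666207, plus strand), Csn2 (chr5:87699426-87699675, minus strand) and Glycam1 (chr15:103565082-103565331, minus strand) are written 5′ to 3′ along the gene, with the motif in capitals, which begins 100, 93 and 145 bases before the gene start.
Csn1s1: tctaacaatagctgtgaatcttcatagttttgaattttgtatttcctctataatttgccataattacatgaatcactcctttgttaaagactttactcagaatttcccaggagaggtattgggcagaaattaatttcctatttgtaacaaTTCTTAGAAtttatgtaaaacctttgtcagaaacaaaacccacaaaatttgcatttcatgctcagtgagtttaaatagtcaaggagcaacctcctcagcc
Csn2: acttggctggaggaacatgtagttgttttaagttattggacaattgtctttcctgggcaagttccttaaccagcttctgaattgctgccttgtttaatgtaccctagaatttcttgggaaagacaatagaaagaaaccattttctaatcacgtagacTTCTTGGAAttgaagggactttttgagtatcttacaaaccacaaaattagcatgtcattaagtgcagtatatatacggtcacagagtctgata
Glycam1: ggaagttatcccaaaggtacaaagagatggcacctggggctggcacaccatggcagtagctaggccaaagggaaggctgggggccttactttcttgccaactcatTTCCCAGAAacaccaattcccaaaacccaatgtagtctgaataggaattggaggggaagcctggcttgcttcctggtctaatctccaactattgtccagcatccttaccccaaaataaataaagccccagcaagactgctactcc
The same window of Csn1s2a, Wap and Lalba held no such letters. A match is a description of the sequence and not a measured binding site. Csn3 and Csn1s2b complete the list.

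The classes were well apart on the genes that chose them, which is a description and not a finding. In the basal class 54 of 64 cells had 9 or 10 of the basal genes, and in the luminal class 26 of 29 had 0 or 1. Around the thresholds lay 2 luminal cells with 2 of the genes (cells 26 and 112), 1 with 3 (cell 61) and 5 basal cells with 6 or 7 (cells 105, 24, 21, 85 and 54). These 5 cells had milk protein genes at 19.7 to 64.1% of reads. Acta2, smooth muscle actin, ranged over basal cells from 311 to 33025 CPM with a median of 6112 CPM, and over luminal cells from 0 to 39.6 CPM with a median of 1.82 CPM. Krt14 was less clean. It ran from 23.7 to 8871 CPM in basal cells (median 904 CPM) and from 0 to 1696 CPM in luminal cells (median 54.2 CPM), and 69.0% of the luminal cells had a read of it. On summed counts the log2 ratio of Krt14, basal over luminal, was 3.04 in pregnancy and 5.72 between the adult sorts.

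The luminal keratins that admitted cells to the luminal class were also present in the basal class. Krt8 had a median of 267 CPM in basal cells (0 to 1056 CPM) and 536 CPM in luminal cells (0 to 1664 CPM). Krt18 had medians of 145 and 1030 CPM, with highest cells at 1931 and 3400 CPM. The ranges overlapped for both. Every one of the 64 basal cells had at least 1 read of Krt8 or Krt18 before thinning, while 16 of the 85 adult basal cells had none.

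By their class medians, genes that the rule did not use gave the same names to the classes, but not in every cell. These were lists of 200 basal and 200 luminal genes that the study took from bulk RNA-seq of adult basal and luminal cells, in libraries other than these. After each cell had been thinned to 50000 reads, basal-class cells detected a median of 58.5 basal-list genes outside the rule (16 to 98) and luminal-class cells 8 (2 to 44). The luminal list without milk protein genes behaved differently. Luminal-class cells detected 60 of its genes (20 to 81) and basal-class cells 28 (6 to 76). In adult basal cells the median was 3 (0 to 9) and in adult luminal cells 67 (17 to 92). So the basal list split the pregnancy classes nearly as it split the adult sorts (medians of 52 and 3 there), whereas the luminal list overlapped. Only 9 of the 64 pregnancy basal cells lay within the adult basal range for luminal genes, and 37 of 64 lay at or above the lowest luminal-class cell. That lowest cell, number 35, had 4 of 5 immune markers. At or above the luminal-class median lay 7 of the 64. Some single cells went against their class. Basal-class cell 1 detected 76 luminal-list and 48 basal-list genes, and cell 85 detected 63 and 19. Luminal-class cell 5 detected 27 luminal-list and 44 basal-list genes.

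**Figure D1:**
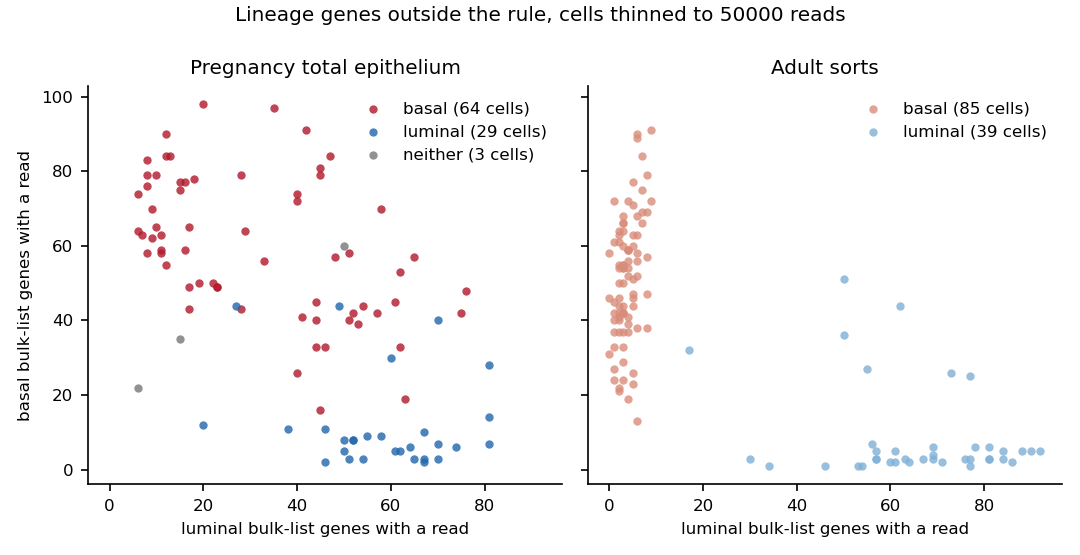
Each point is 1 cell, thinned to 50000 reads. The x axis counts luminal bulk-list genes with at least 1 read (milk protein and rule genes left out) and the y axis basal bulk-list genes (rule genes left out). Adult basal cells stay at 0 to 9 luminal genes, while the 64 pregnancy basal cells spread from 6 to 76 and reach into the range of the 29 luminal cells.

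Cells with genes of the other side were found among luminal cells too. Of the 29 luminal-class cells 5 detected at least 16 basal-list genes, the lowest value of the basal class, and so did 7 of the 39 adult luminal cells. Each of the 5 (cells 5, 36, 39, 61 and 68) also had 3 or more markers of another cell type. The adult cells were numbers 5, 11, 26, 27, 33 and 43, each with 3 or more fibroblast markers, and library 35, which had no such set. Where their basal-list reads came from was not tested. The adult luminal library 35 carried genes of both sides. It had 9 of the 10 basal genes at 50 CPM or more, 50 luminal-list genes and 1185 reads of Krt8 or Krt18. It held 99.2% of all Acta2 reads of the adult luminal sort, and adult ratios that turn on it are given below also without it.

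Across all genes, fewer separated the classes in pregnancy than the adult sorts. A gene counted as past the fold when summed counts differed 4-fold or more (log2 ratio of 2) and the higher group had at least 10 CPM. The rule genes were left out. In pregnancy 968 of 8736 genes compared were higher in the basal class (11.1%) and 535 in the luminal class (6.12%). Between the adult sorts 1118 of 9785 were higher in basal (11.4%) and 1764 in luminal cells (18%). Over the 8026 genes compared in both contrasts 14.3% were past the fold in pregnancy and 23.8% in the adult sorts. The luminal side was the one that differed. The 5th percentile of the log2 ratios lay at -1.85 in pregnancy and at -4.50 in the adult sorts, while the 95th percentile was 3.15 and 3.07.

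Starting from the genes that separated the adult sorts, 693 of 1097 basal-higher genes (63.2%) had a log2 ratio smaller by 1 or more in pregnancy, and 100 (9.12%) a larger one. Of 1716 luminal-higher genes 1577 (91.9%) were smaller and 7 (0.408%) larger. The minimum of 10 CPM was asked only in the contrast that chose the genes. Genes low in both groups of the other contrast therefore also entered these shares and medians, from either start. The median log2 ratio in the adult direction was 3.45 between the adult sorts and 1.45 in pregnancy for the basal-higher genes, and 3.65 and 0.34 for the luminal-higher genes. Genes chosen for a large ratio in one contrast tend to have a smaller one in another, so the reverse start is needed beside it. Of 957 genes higher in the pregnancy basal class 648 (67.7%) had a smaller ratio between the adult sorts and 91 (9.51%) a larger one. Of 501 higher in the pregnancy luminal class 236 (47.1%) were smaller there and 149 (29.7%) larger. On the basal side, then, the share with a smaller ratio was alike from either start. On the luminal side the shares were far apart, and the median of the genes chosen in pregnancy was 2.87 there and 2.13 between the adult sorts.

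**Figure D2:**
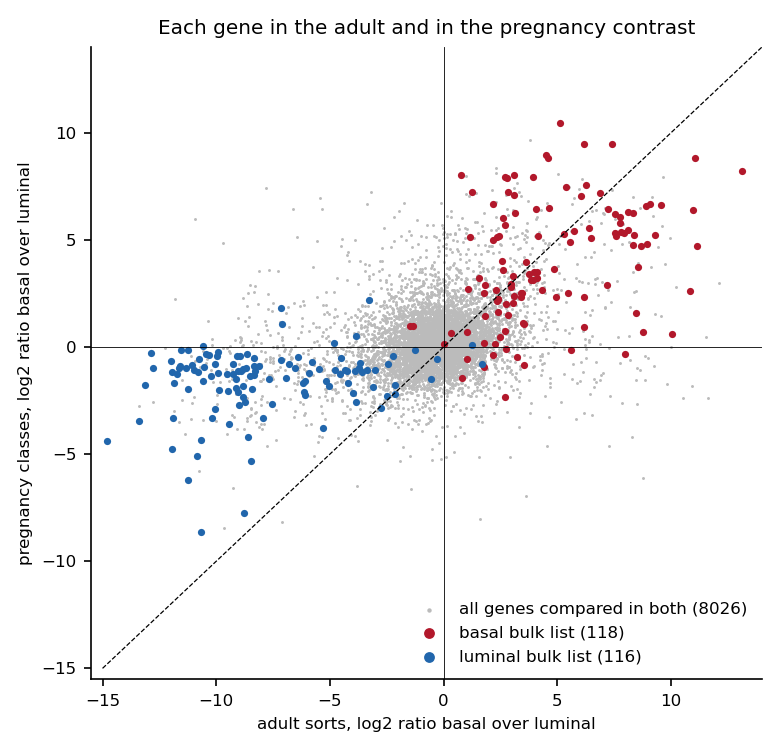
Each point is a gene compared in both contrasts, with the log2 ratio of summed CPM, basal over luminal, between the adult sorts on the x axis and between the pregnancy classes on the y axis. The dashed line marks equal ratios. Basal-list genes (red) have medians of 3.88 and 3.68, and luminal-list genes (blue) lie far to the left but close to 0 in pregnancy, with medians of -8.63 and -1.17.

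The bulk lists came from other libraries, but were chosen for differing between adult basal and luminal cells, so a larger ratio between the adult sorts is favoured by their choice. Of 123 basal-list genes compared in pregnancy 93 were higher in the basal class past the fold (11.1% of all genes were) and 1 in the luminal class, and of 150 compared in the adult sorts 129 and 0. Over the 118 genes compared in both, the median log2 ratio was 3.68 in pregnancy and 3.88 in the adult sorts, against 0.15 and -0.25 for all genes. Of 128 luminal-list genes compared in pregnancy 32 were higher in the luminal class past the fold (6.12% of all genes were) and 1 in the basal class. In the adult sorts these counts were 156 of 162 and 0. The median over the 116 genes compared in both was -1.17 in pregnancy and -8.63 in the adult sorts. In the adult contrast 65 luminal-list genes had no read in basal cells and entered at a floor of 3 reads over the group, so that the adult median is a bound on its size. The basal list is partly of the same kind as the rule, since it includes contractile genes.

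**Figure D3:**
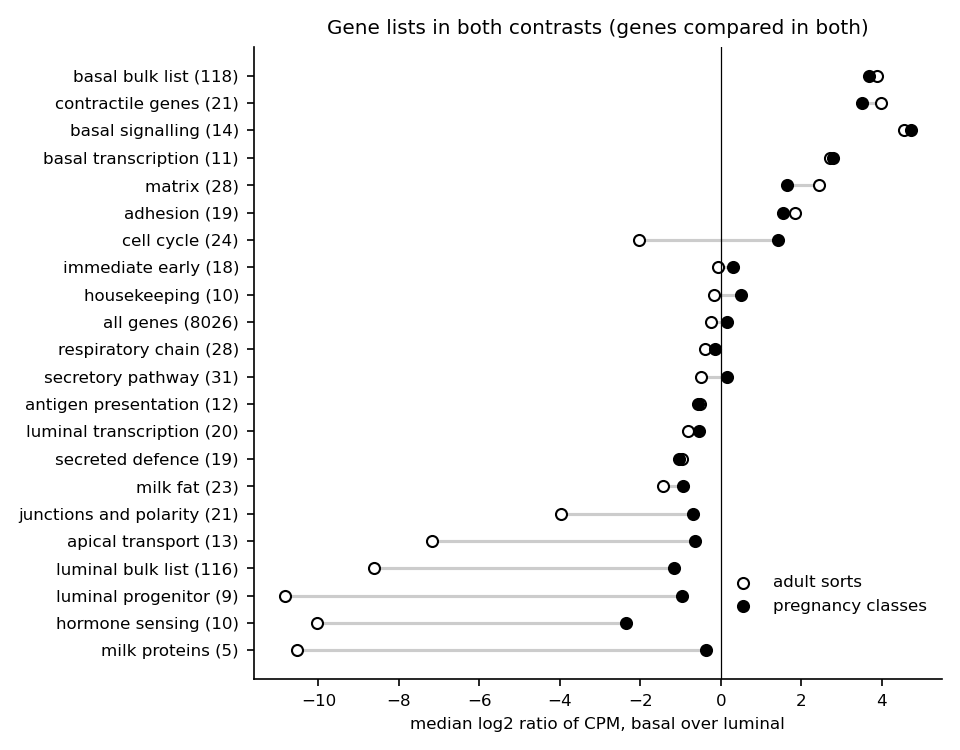
Median log2 ratio of CPM, basal over luminal, for each gene list, in the pregnancy classes (filled) and the adult sorts (open), over the genes compared in both contrasts (number in brackets). The basal bulk list has 3.68 in pregnancy and 3.88 in the adult sorts, the luminal bulk list -1.17 and -8.63, luminal transcription genes -0.53 and -0.81, and the cell cycle list 1.42 and -2.02.

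Contractile genes are of the kind the rule used to pick the basal class, so their direction is no separate evidence. Of 21 outside the rule that could be compared, 17 were higher in the pregnancy basal class past the fold (11.1% of all genes were), and the median log2 ratio was 3.50 (3.99 in the adult sorts). Nexn, an actin-binding protein of muscle, had a median of 226 CPM over basal cells (0 to 3843 CPM), and no luminal cell exceeded 9.89 CPM. Its log2 ratio was 9.49 (7.94 to 11.77) in pregnancy and 6.16 in the adult sorts. Actg2, a smooth muscle actin, had a median of 188 CPM in basal cells and no read in the luminal class, which gave a log2 ratio of at least 9.46 against the floor of 0.433 CPM. Cald1, caldesmon, was found in all 64 basal cells at 163 to 6634 CPM (median 1075 CPM) and in 51.7% of thinned luminal cells (32.5 to 70.6%), whose highest value was 322 CPM. The groups met only at these low basal cells, and the log2 ratio of 4.83 was close to the adult 4.62. Tpm1, tropomyosin, had 3.79 and 3.32.

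Contractile genes with general roles in the cytoskeleton had narrower contrasts. Actn1, alpha-actinin, reached a log2 ratio of 1.59 in pregnancy and 3.99 in the adult sorts, and Flna, filamin A, 2.51 and 4.09. Lmod1, which nucleates actin filaments in smooth muscle, went from 8.33 in the adult sorts to 3.50 in pregnancy, but 1 luminal cell held 85.7% of the luminal reads and without it the pregnancy value was 6.26. Vcl and Tpm4 were under the fold in both contrasts.

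Among genes with at least 100 CPM in the basal class and a read in at least 50% of its thinned cells, the 12 largest basal-higher ratios included secreted factors and receptors besides muscle genes. Their log2 ratios ran from 7.65 to 10.46, and they were Ecrg4, Bdnf, Nexn, Actg2, Wif1, Nrg1, Il17b, Lama3, Reln, Ntrk3, Fmod and 1600014C10Rik. Ecrg4, the precursor of a secreted peptide, had reads in 61 of 64 thinned basal cells (95.3%, 86.9 to 99.0%) and a median of 719 CPM (0 to 3404 CPM). No luminal cell had a read of Ecrg4, so its log2 ratio was at least 10.46. Nrg1, a ligand of the Erbb3 and Erbb4 receptors, had a median of 585 CPM in basal cells (0 to 6297 CPM) against 0 in luminal cells (highest 40.8 CPM), with a log2 ratio of 8.80 (8.03 to 9.71). Bdnf, a neurotrophin, was more uneven, with a median of 22.1 CPM, a highest basal cell at 1586 CPM and 1 read in the whole luminal class. Its log2 ratio of 9.67 therefore has a wide interval, 7.19 to 14.98.

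Several of these ratios were larger than between the adult sorts, where Ecrg4 had 5.10, Bdnf 3.82, Wif1 4.50 and Reln 0.75. The adult values of 3 of them turned on library 35. Without the adult luminal cell with most reads of the gene, which was library 35 for Ecrg4, Wif1 and Reln, the adult ratios were 8.36, 10.89 and 9.10. Against these stood pregnancy ratios of at least 10.46 for Ecrg4, at least 8.98 for Wif1, a secreted Wnt inhibitor, and 8.04 for Reln, an extracellular matrix glycoprotein. By the levels set for naming genes, only Ly6a, Ica1, Cd82 and Nupr1 were luminal-higher past the fold in pregnancy, and 0 of them were wider there. Without those levels, 236 of 501 pregnancy luminal-higher genes had a ratio smaller by 1 or more between the adult sorts.

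Regulators of the basal state were on the basal side. All 12 basal transcription factor genes compared had a positive log2 ratio in pregnancy, 8 of them past the fold (11.1% of all genes were). Trp63, the master factor of basal epithelia, had reads in 48.4% of thinned basal cells (35.8 to 61.3%) and in 0 of 29 luminal cells, which allows up to 11.9%. Its log2 ratio was at least 7.96 in pregnancy and 2.71 in the adult sorts, where library 35 held 99.0% of the luminal reads (9.28 without it). Snai2, a repressor of epithelial genes, had 6.21 (5.33 to 7.28) in pregnancy and 7.52 in the adult sorts. Nfib was broadly expressed, in 98.4% of basal and 100% of luminal thinned cells, with a log2 ratio of 0.52.

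Signalling genes of the basal list kept their side with few exceptions. Of 15 compared, 9 were higher in the basal class past the fold (11.1% of all genes were) and 1, Procr, in the luminal class (6.12%), and 95.9% of the luminal Procr reads came from 1 cell. Oxtr, the oxytocin receptor through which basal cells contract at milk let-down, had a median of 114 CPM in basal cells (0 to 3443 CPM) and was found in 10.3% of luminal cells (2.19 to 27.4%). Its log2 ratios were 5.17 in pregnancy and 5.12 in the adult sorts. The Wnt inhibitor Dkk3 had 2.60 in pregnancy and at least 10.84 in the adult sorts. Sfrp1, another Wnt inhibitor, had 1.42 and 9.57.

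A pair of Notch ligands stood on the basal side. Dll1 had a log2 ratio of 4.74 (4.20 to 5.35) in pregnancy and 8.32 in the adult sorts. Jag1 had a median of 366 CPM in basal cells (0 to 2682 CPM) and 18.3 CPM in luminal cells (0 to 1445 CPM). Its log2 ratio was 2.27 in pregnancy but 0.21 between the adult sorts, where both had like levels (731 and 632 CPM summed). The receptors Notch1 and Notch2 had ratios of 0.17 and 0.18, and Hes1, a target of the pathway, -1.02.

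**Figure D4:**
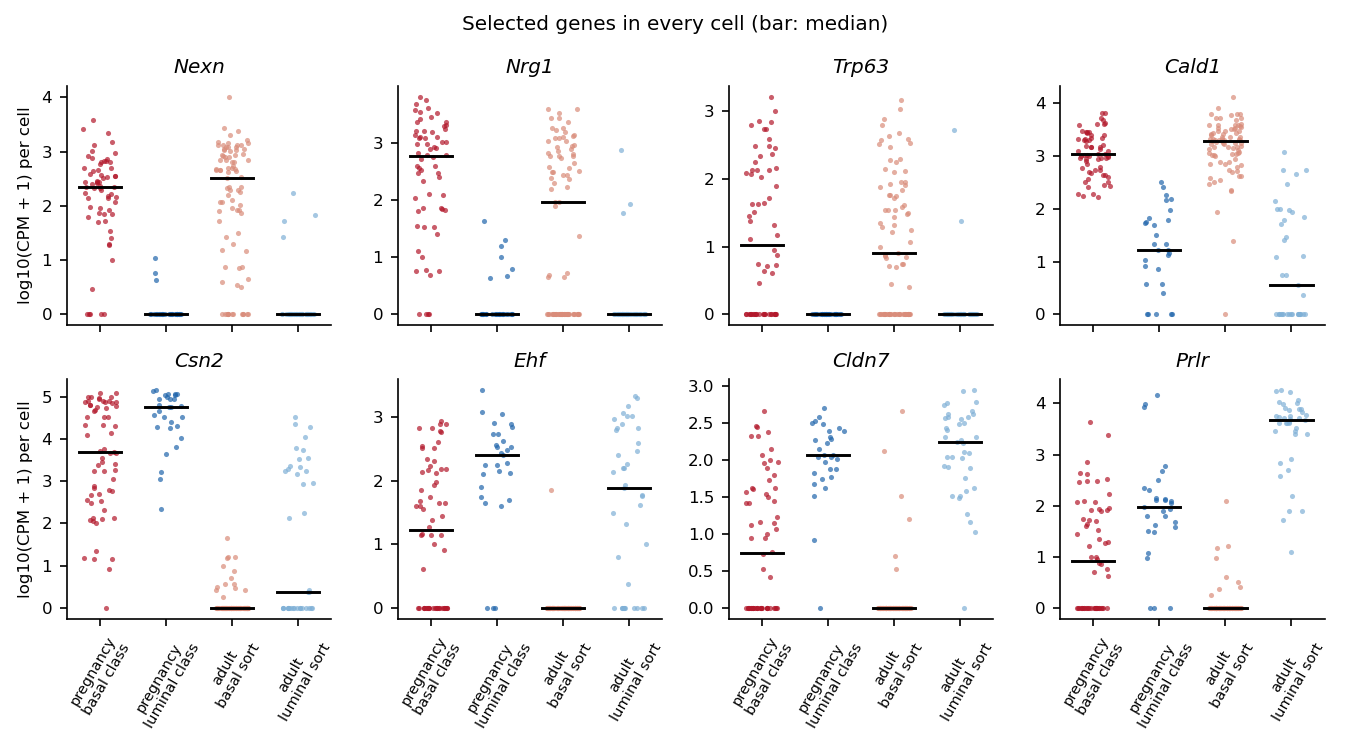
log10(CPM + 1) of 8 genes in every cell of the 2 pregnancy classes and the 2 adult sorts, with the median as a bar. Nexn, Nrg1 and Trp63 have medians of 0 in the pregnancy luminal cells and Cald1 a median of 15.7 CPM, while the luminal genes of the lower row, at 0 in most adult basal cells, are spread over the pregnancy basal cells from 0 to luminal levels.

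Matrix and adhesion genes were on the basal side by a smaller margin. Of 28 matrix genes 13 were higher in the basal class past the fold (11.1% of all genes were), with a median log2 ratio of 1.65 (2.44 in the adult sorts). Lama3, a chain of the laminin that anchors hemidesmosomes, had 8.05 (6.50 to 10.33). Thbs1, thrombospondin, had 2.97 in pregnancy and 2.80 in the adult sorts. Postn, periostin, had a median of 1137 CPM in basal cells (0 to 17115 CPM) and 0 in luminal cells, yet a log2 ratio of only 1.59, against 8.44 in the adult sorts. Here 1 luminal cell, number 36, held 80.1% of the luminal reads, and without it the ratio was 3.87. Sparc had 1.51 in pregnancy and 2.83 in the adult sorts, with reads in 48.3% of luminal cells. Fstl1 had its summed level higher in the luminal class (log2 ratio -0.58) although it was found in 98.4% of basal and 34.5% of luminal cells, and cell 36 held 52.5% of its luminal reads. Its direction differed between the ranges of title numbers, with -1.20 in cells up to 55 and 3.57 in cells from 56. The same cell held 41.9% of the luminal reads of Dcn, a fibroblast gene.

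Among 19 adhesion genes 7 were past the fold on the basal side (11.1% of all genes were) and 0 on the luminal side, with a median of 1.55 (1.84 in the adult sorts). The laminin receptor subunits Itga6 and Itgb1 had log2 ratios of 1.55 and 1.47, and were found in 86.2% and 93.1% of luminal cells. Gja1, a gap junction protein, had 2.36 in pregnancy and 3.07 in the adult sorts. Plec, which ties keratin filaments to hemidesmosomes, differed little in either contrast (0.27 and 0.21).

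The milk protein genes differed widely between the contrasts. Summed over the list, they made up 21.6% of all reads of the pregnancy basal class and 27.5% of the luminal class. In the adult sorts these shares were 0.000680% and 1.25%. None of the 8 genes was past the fold between the pregnancy classes, where 6.12% of all genes were on the luminal side, and their log2 ratios ran from -0.94 to 1.04. Csn2, beta-casein, was found in 60 of 64 thinned basal cells (93.8%, 84.8 to 98.3%) and in all 29 luminal cells. In adult cells it was found in 4.71% of basal cells and 46.2% of luminal cells. Its level over the basal class ran from 0 to 122455 CPM with a median of 4860 CPM, and over the luminal class from 220 to 142701 CPM with a median of 56390 CPM. The log2 ratio of the sums was -0.63 in pregnancy, and the adult sorts stood at 0.7 CPM (basal) and 2861 CPM (luminal). Csn1s2a had -0.16 and Wap, whey acidic protein, -0.17 in pregnancy.

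Sums and medians over cells differed for milk. Milk protein genes took a median of 1.92% of reads per basal cell (0.00108 to 64.1%) and 17.9% per luminal cell (0.159 to 53.2%). In the basal class 28 cells were under 1% and 17 above 20%, and 5 cells held at least 50% of the milk reads of the class. In the luminal class 3 of 29 were under 1% and 12 above 20%. With every cell given the same weight the shares were 11.9% and 20.3%, and the median log2 ratio of the milk genes compared in both contrasts went from -0.36 to -0.79. All but 1 of the basal cells were above the highest adult basal cell, and 25 of 64 were above the highest adult luminal cell, against 20 of 29 luminal cells.

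The make-up of the milk reads was alike in the classes. Csn1s2a gave 39.7% of them in the basal class and 34.7% in the luminal class, Csn2 22.6% and 27.4%, Csn1s1 18.0% and 17.5%, Csn3 12.2% and 12.3%, Glycam1 5.11% and 5.79%, and Wap 1.92% and 1.69%. In adult luminal cells Csn1s1 came first with 33.1%, and Glycam1 gave 0.000329%. Whether free milk transcripts entered the chambers was not tested.

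**Figure D5:**
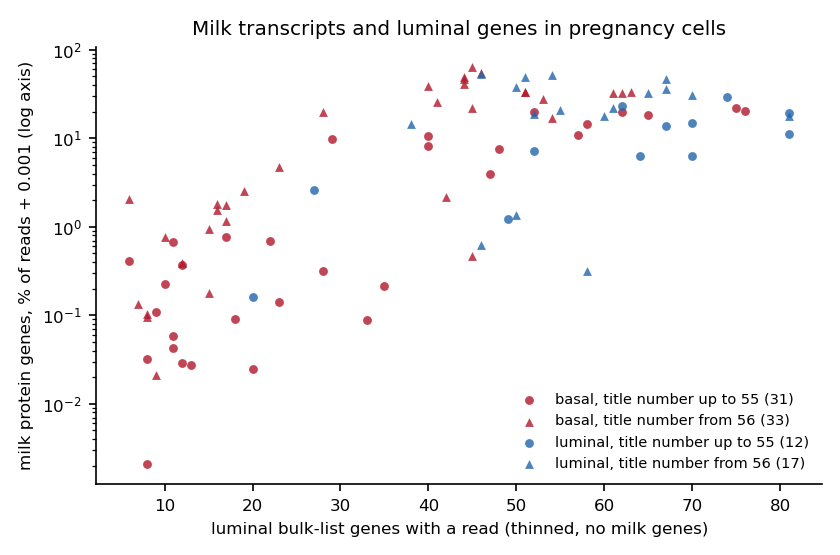
Each point is a pregnancy cell. The x axis counts luminal bulk-list genes with a read after thinning (milk protein genes left out) and the y axis, on a log scale, gives milk protein genes as a percent of reads plus 0.001. Basal-class cells run from few luminal genes and under 1% milk reads to the values of the luminal class, in both ranges of title numbers.

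Over the 64 basal cells, the number of luminal-list genes went with the milk share (Spearman rho 0.77) and against the number of basal-list genes (rho -0.50). It also went with the reads of the cell (rho 0.58) and with the genes detected after thinning (rho 0.45). The points share a thinning to one depth, and a milk-rich cell leaves fewer reads for other genes. Among cells with title numbers up to 55 and from 56, rho was 0.78 and 0.76 with the milk share and -0.44 and -0.52 with the basal genes. The labels name no capture or animal for these ranges, and the division at 55 was drawn after the data had been seen. The study inspected the chambers by eye for single cells, no doublet caller was run, and the part of 2 cells in 1 chamber in these values was not tested.

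Luminal transcription genes as a list changed little between the contrasts, with a median of -0.53 in pregnancy and -0.81 in the adult sorts. Of 20 compared 2 (Cited1 and Creb3l1) were past the fold on the luminal side in pregnancy, near the 6.12% of all genes, and 0 on the basal side. In the adult sorts 7 of 22 were past it on the luminal and 2 on the basal side. Single members differed more. Ehf, an ETS factor of secretory epithelia, was found in 50.0% of thinned basal cells (37.2 to 62.8%) and 89.7% of luminal cells (72.6 to 97.8%) in pregnancy, and in 1.18% and 66.7% of the adult sorts. Its medians were 15.7 and 250 CPM, and the ranges overlapped, with highest cells at 871 and 2657 CPM. The log2 ratio was -1.18 in pregnancy and -10.80 in the adult sorts. Elf5, the alveolar master factor, had summed levels of 53.3 and 59.0 CPM and a ratio of -0.15. Gata3, which maintains luminal cells, had -0.79 and -1.22. Foxa1, a partner of the oestrogen receptor, had -1.26 in pregnancy and -11.73 or below in the adult sorts.

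Tight junction and polarity genes, which seal the luminal layer, were present in basal-class cells as well. Of 22 compared 2 were higher in the luminal class past the fold (Ocln and Crb3), near the 6.12% of all genes, and 1 in the basal class (11.1% of all genes were). In the adult sorts 12 of 22 were luminal-higher and 1 basal-higher. The median log2 ratio was -0.68 over genes compared in both contrasts (-3.96 in the adult sorts). Cldn7 was found in 43.8% of basal cells (31.4 to 56.7%) and 96.6% of luminal cells, against 3.53% and 87.2% in the adult sorts. Its log2 ratios were -1.70 and -6.20. Cldn4 had -0.96 and -8.68, and Cldn8 -0.14 against -11.57 or below. The exception was Dsp, desmoplakin of the desmosomes. It had a median of 58.4 CPM in basal cells (0 to 2942 CPM) and 0 in luminal cells (0 to 572 CPM), and a log2 ratio of 3.60 (3.30 to 3.92) where the adult sorts had 0.62. It was found in 17.2% of pregnancy luminal cells and 69.2% of adult luminal cells.

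Of 19 apical and transport genes 2 were past the fold, both on the luminal side (6.12% of all genes were), and the median over genes compared in both contrasts was -0.63 (-7.19 in the adult sorts). Muc15 was found in 53.1% and 89.7% of cells and had a log2 ratio of -0.59. Ceacam1 had -0.98 in pregnancy and -12.76 in the adult sorts, where the basal sort held 1 read. Car2, carbonic anhydrase, had medians of 41.3 and 396 CPM and ratios of -0.42 and -11.09. Of 25 genes of secreted defence proteins 4 were higher in the luminal class past the fold (6.12% of all genes were) and 1 in the basal class, and the median was -1.04 in pregnancy and -0.96 in the adult sorts. Members of this list differed, and Wfdc18, a small secreted protein, had -0.80 and -10.05, and Trf, transferrin, -1.16 and -3.61. Milk fat genes had a median of -0.93 (-1.43 in the adult sorts). Plin2, the lipid droplet coat protein, had -0.94 and Scd1, a fatty acid desaturase, -1.08.

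Several hormone-sensing genes were low in both pregnancy classes. Areg, the growth factor that relays the oestrogen signal, stood at 0.834 and 2.89 CPM in pregnancy and 905 CPM in adult luminal cells. Cited1 stood at 2.89 and 31.8 CPM in pregnancy and at 904 CPM in adult luminal cells. Prlr, the prolactin receptor, was found in all 39 adult luminal cells (11.4 to 18121 CPM, median 4850 CPM). In pregnancy its median was 92.6 CPM in the luminal class (0 to 14387 CPM) and 7.33 CPM in the basal class (0 to 4421 CPM). Luminal cells 70, 73 and 112 had 8468, 9637 and 14387 CPM, and no other luminal-class cell exceeded 596 CPM. The luminal groups were thus unlike in their share of Prlr-high cells, and the part of this in the contrasts was not tested. The log2 ratio of Prlr was -1.16 in pregnancy (-2.26 without basal cell 98, which held 54.4% of the basal reads) and -11.94 in the adult sorts. Luminal cell 112 held 42.2% of the luminal Prlr reads. Without that cell, an alternative added after the data had been seen, the pregnancy ratio was -0.39. Of 10 hormone-sensing genes compared in pregnancy 5 were higher in the luminal class past the fold (6.12% of all genes were) and 1 in the basal class, with a median of -2.36 (-10.04 in the adult sorts). The 1 on the basal side was Ptn, the growth factor pleiotrophin, with a log2 ratio of 2.21 against -3.26 in the adult sorts. It was found in 70.3% of basal and 10.3% of luminal cells in pregnancy, and 84.6% of adult luminal cells. A single luminal cell, number 70, held 94.3% of the luminal Ptn reads, and without it the ratio was 6.32. That cell was among those with high Prlr.

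Luminal progenitor genes were on the luminal side with 3 of 9 past the fold (6.12% of all genes were), a median of -0.97 and 0 genes higher in the basal class. Between the adult sorts the median was -10.83. Kit, a receptor tyrosine kinase of progenitors, was found in 15.6% of basal cells (7.76 to 26.9%) and 58.6% of luminal cells (38.9 to 76.5%), and its log2 ratios were -1.49 and -9.13. Aldh1a3 had -0.97 and -11.35. Plac8 and Tspan1 were past the fold in pregnancy, at -3.29 and -5.11, but 1 luminal cell held 98.6% of the luminal Plac8 reads.

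Under the same minimums of level and cells, the 12 most luminal-biased genes in pregnancy reached log2 ratios of only -1.79 to -2.74. They were Ly6a, Ica1, Cd82, Nupr1, Shisa5, Mlec, Gk, Tnfaip2, Lbp, Uqcrfs1, Aldoc and Acot1, and the first 4 were past the fold. Ly6a, the surface antigen Sca-1, was found in 31.2% of basal cells (20.2 to 44.1%) and 65.5% of luminal cells (45.7 to 82.1%). Its values ran from 0 to 1883 CPM and from 0 to 14902 CPM, with medians of 0 and 107 CPM, and luminal cell 5 held 61.0% of the luminal reads. That cell had all 6 fibroblast markers and 44 basal-list genes. The log2 ratio was -2.74 (-2.82 to -2.67), and in the adult sorts -13.38 or below. Without cell 5, an alternative added after the data had been seen, it was -1.43, under the fold, and Nupr1 without its top luminal cell had -1.77. Cd82, a tetraspanin, had -2.24 in pregnancy and -6.12 in the adult sorts. Ica1, linked to secretory granules, had -2.40 and -3.07, so its contrast was nearly as wide. Nupr1, a stress-response regulator, had -2.15 and -3.97. Lbp binds bacterial lipopolysaccharide, and had -1.84 and -3.23.

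The genes with the largest loss of contrast on the luminal side were Samd5, Ly6d, Stc2, Iigp1, Car2, Ceacam1, Prlr and Gdpd1. Ly6d and Stc2 were under 10 CPM in both pregnancy classes and were not compared there. Samd5 had 24.8 CPM in the basal class, and 62.3% of that came from 1 cell. Gdpd1 had a pregnancy log2 ratio of -1.79, with 56.7% of its luminal reads in cell 112, and -0.60 without that cell. Iigp1, an interferon-induced GTPase, was at 200 CPM in the basal and 208 CPM in the luminal class, with a log2 ratio of -0.06 (-0.15 to 0.03), while no adult basal cell had a read of it. On the basal side the names were Tenm2, Cacna2d1, Lmod1, Ltbp2, Scn7a, Dkk3, Postn and Serpina3n, all still higher in the pregnancy basal class. Tenm2, a teneurin adhesion receptor, had 8.22 (6.37 to 11.27) in pregnancy, against 2 reads in the luminal class, and 13.11 in the adult sorts, against 1 read.

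Keratins outside the rule divided in the same way. Krt15 had a log2 ratio of 5.78 in pregnancy and 3.67 in the adult sorts, and Krt23, at 71.2 CPM in the basal class and no read in the luminal class, at least 7.36. Krt19, a luminal keratin, was found in 68.8% of basal and 96.6% of luminal cells and had -1.10 in pregnancy and -4.78 in the adult sorts. Among the epidermal growth factor family, Nrg1 has been given above. Its receptor gene Erbb3 was at 2.31 and 7.95 CPM in pregnancy. Egfr had 44.8 and 42.2 CPM in the classes, a ratio of 0.09, against 6.22 in the adult sorts, where the luminal level was 1.48 CPM.

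Cell cycle genes changed side. Of 25 compared in pregnancy 8 were higher in the basal class past the fold and 0 in the luminal class, where 11.1% of all genes were on the basal side. In the adult sorts 15 of 28 were higher in the luminal sort and 0 in the basal one. The median log2 ratio over 24 genes was 1.42 in pregnancy and -2.02 in the adult sorts. Top2a, a DNA topoisomerase, had 1.87 and -2.51, and Mki67 1.46 and -1.95. Both medians over cells were 0 in both pregnancy classes, so these sums came from a minority of cells. With 3 or more of 10 cycling markers as the mark, 19 of 64 basal cells (29.7%, 18.9 to 42.4%) and 6 of 29 luminal cells (20.7%, 7.99 to 39.7%) were cycling, and 2 of 85 and 7 of 39 in the adult sorts. The 2 pregnancy intervals overlapped. Among cells with numbers up to 55 the shares were 16 of 31 and 6 of 12, and among those from 56 they were 3 of 33 and 0 of 17. So the shares were near each other within the first range, and the cycling cells were mostly there. The median log2 ratio of the list was 1.07 in the first range and 4.11 in the second, where no luminal cell was cycling.

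The respiratory chain, secretory pathway, immediate-early and housekeeping lists had pregnancy medians from -0.14 to 0.51. The 28 nuclear genes of the respiratory chain had a median log2 ratio of -0.14 and none past the fold. The 31 genes of the secretory pathway had 0.16 and none past the fold, with Canx, an endoplasmic reticulum chaperone, at 0.81 and Sec61a1, a channel subunit, at -0.36. Immediate-early genes had 0.30, with Fos at 1.04, and housekeeping genes 0.51, with 8 of 10 positive. B2m and H2-K1, of antigen presentation, had -0.61 and -0.47. Cells of both classes had like depth, with median reads of 208852 in basal and 224667 in luminal cells and 3307.5 and 3077 genes after thinning. 

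Markers of other cell types were measured in the same cells. In the basal class 13 of 64 cells had 3 or more markers of 1 other type, and in the luminal class 6 of 29 had, against 1 of 85 adult basal and 6 of 39 adult luminal cells. Fibroblast markers accounted for 6 and 3 of the pregnancy cells. Their summed level ranged over basal cells from 0 to 39788 CPM (median 178 CPM) and over luminal cells from 0 to 24782 CPM (median 0), with all 6 markers above 0 in both classes. Dcn alone was in 73.4% of basal cells, and the other 5 fibroblast markers were in 7.81 to 21.9% of them. Immune markers came nearly all from 1 cell in each class, with 91.4% and 97.1% of the reads, and the same held for Cd74 and H2-Aa. Erythroid and adipocyte markers were found with 3 or more genes in 0 cells. Without the cells that carried markers of another type, the median of the basal bulk list was 5.82 in pregnancy and 6.64 in the adult sorts, and of the luminal list -1.22 and -8.67.

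The median of the luminal list stayed smaller in size than that of the basal list within each range of title numbers. In cells up to 55 (31 basal and 12 luminal) the medians of the basal and luminal bulk lists were 3.49 and -1.32, and in cells from 56 (33 basal and 17 luminal) 5.05 and -1.20. The share of adult luminal-higher genes that were smaller in pregnancy was 87.6% and 85.2%, and of adult basal-higher genes 61.2% and 51.1%. From the reverse start the shares were 74.2% and 81.4% for pregnancy basal-higher genes and 57.8% and 63.3% for luminal-higher genes, so on the basal side the starts were further apart within the ranges than over all cells. With stricter classes, basal from 8 and luminal up to 1 of the 10 genes, the medians were 4.48 and -1.28. Postn had a log2 ratio of 0.35 in the first range, which holds cell 36, and 7.99 in the second. Leaving out the adult cells that the marker rule did not place in their own sort raised the adult median of the basal list from 3.88 to 5.67, against 3.68 in pregnancy. With every cell at the same weight the basal list had 4.20 in pregnancy and 4.09 in the adult sorts, and the contractile list 3.84 and 3.56, so which contrast was wider on the basal side depended on these choices.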

How the data were processed

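Single mouse mammary cells were captured on the Fluidigm C1 and sequenced from Nextera XT libraries. The authors aligned reads to mm10 with Subread 1.4.6 and deposited raw read counts per gene, assigned by featureCounts to RefSeq annotation, with 1 table per cell. A series table with the same counts was not used. Genes without a symbol (1904 of 27179), mitochondrial genes (15) and ribosomal genes (123) were left out, which left 25137. Minimums were 50000 reads and 1000 genes per cell, and 100000 and 1500 for adult luminal cells. Counts were summed over the cells of each class and scaled to CPM of the summed total, 15579875 reads in the basal and 6920979 in the luminal class. A gene was compared where the higher class reached 10 CPM. A class without a read entered at a floor of 3 reads, and such ratios are bounds. Detection was counted after thinning each cell to 50000 reads. No count model was fitted, because each class was 1 sample. Intervals were exact (Clopper-Pearson for shares, conditional binomial for ratios).

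Genes were named by a rule. It took the 12 highest and 12 lowest pregnancy ratios where the higher class reached 100 CPM and 50% of its thinned cells had a read, the 8 adult-separating genes at the same levels with the largest narrowing in each direction, the 5 with the largest widening, and up to 6 members of each list by level, besides any past the fold against its list. Other list members in the text were chosen after their values were seen. The members and lists were chosen with earlier results of these data known. Alternatives covered scaling by TMM in edgeR 4.0.16 (R 4.3.3), cell weights, thinning, filters, class limits, fold limits and left-out cells. Ratios were tested on simulated data with Python 3.11.15, NumPy 2.4.6, pandas 2.3.3 and SciPy 1.17.1.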

Additional observations from a re-analysis of the deposited data

How the results depend on the processing

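No paired analysis was possible because the labels name no animal and each class was 1 sample. Replicates could not be left out for the same reason. Of the summary values 395 stayed within their limits and 81 moved, of the named-gene values 629 stayed and 142 moved, and of the shares of cells 6 stayed and 6 moved. Among named genes past the fold the sign turned for Ly6d, to -0.73 without the basal cell with most of its reads (an alternative added after the data had been seen). Under TMM the median of all genes went from 0.12 to -0.01 in pregnancy and from -0.30 to 0.04 in the adult sorts. The causes of the moves were not tested. In what follows, the narrowing share is the percent of genes with a ratio smaller by 1 or more in the other contrast. No minimum level was asked in that other contrast. List values are median log2 ratios.

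Under TMM scaling the narrowing share was 67.9% for adult basal-higher and 62.8% for pregnancy basal-higher genes. With every cell at the same weight it was 90.0% for adult luminal-higher genes, the luminal bulk list had -1.89 in pregnancy, and milk genes took 11.9% of basal-class reads. Basal-higher genes past the fold then numbered 1248 in pregnancy and 1127 in the adult sorts, the opposite order to the sums. With cells thinned before summing, the adult basal-higher and luminal-higher shares were 58.7% and 87.7%, the adult values were -5.82 (luminal bulk list), -9.91 (milk proteins) and -3.17 (junctions), and the basal-class milk share was 11.9%. With the sums thinned to 1 total the adult luminal list had -6.55. Without the low-level filter 2288 and 1309 genes were past the fold in pregnancy (basal, luminal) and 2317 and 3572 in the adult sorts, the adult luminal-higher share was 87.4%, and the adult luminal and contractile lists had -7.59 and 3.32.

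Stricter classes gave the basal list 4.50 (7 or more, 2 or fewer) and 4.48 (8 or more, 1 or fewer) in pregnancy, the latter with an adult basal-higher share of 58.5%. With adult cells kept only where the marker rule gave their sort, the pregnancy basal-higher share was 63.1% and the adult basal list 5.67. Among title numbers up to 55 there were 31 basal and 12 luminal cells, 883 luminal-higher genes, narrowing shares of 87.6% (adult luminal-higher), 74.2% and 57.8% (pregnancy basal- and luminal-higher), medians of -0.96 (milk) and 4.33 (contractile), milk shares of 7.62% and 13.1%, and 51.6% and 50% cycling cells. Among those from 56 there were 33 and 17 cells, 1586 and 807 genes past the fold, narrowing shares of 51.1%, 85.2%, 81.4% and 63.3%, medians of 5.05 (basal list) and 4.11 (cell cycle), and 9.09% and 0% cycling cells.

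Without cells carrying markers of another type the adult basal-higher, adult luminal-higher and pregnancy luminal-higher shares were 56.5%, 89.3% and 53.8%, and the basal list had 5.82 in pregnancy and 6.64 in the adult sorts. Without cycling cells 864 genes were luminal-higher in pregnancy, the 4 shares were 57.8%, 85.1%, 72.1% and 53.8%, and medians were 4.27 (basal list in pregnancy), -0.44 (adult cell cycle) and -2.72 (adult junctions). At a log2 limit of 1 the counts were 2100, 1494, 2010 and 3213 and the shares 54.7%, 78.8%, 63.3% and 37.8%. At 3 the counts were 546, 253, 687 and 1158, with shares of 95.6% (adult luminal-higher) and 71.3% (pregnancy basal-higher). For a loss of 2 or more the 4 shares were 48.1%, 78.8%, 54.4% and 36.7%. As medians over cells the milk shares were 1.92% and 17.9%. Depth set the floor at 0.433 CPM in the luminal class, and 123 pregnancy and 404 adult ratios were bounds.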
